A study of Homo sapiens with 12 samples.

Results

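The genes described here are 10 genes of sphingolipid synthesis, chosen on measured values because earlier results of these data showed that several of them responded to the seaweed extract, out of 57736 genes in the tables, 27326 of which had a count. They are SPTLC1 and SPTLC2, which encode subunits of serine palmitoyltransferase; ORMDL3, a regulator of that enzyme; KDSR, the ketodihydrosphingosine reductase; the ceramide synthases CERS2, CERS5 and CERS6; the desaturase DEGS1; the glucosylceramide synthase UGCG; and the sphingomyelin synthase SGMS1. The data are 12 libraries of RNA from 2 human cancer cell lines, HepG2 from liver and Ls174 from intestine, each with 3 untreated control cultures and 3 cultures treated for 24 h with 0.7 mg/ml HME, a methanol extract of the red seaweed Hypnea musciformis. The dose is the one in the sample labels, and the written methods give a slightly higher one. All cells of a line come from 1 established line, no transgene is named in the written methods, and the replicates are biological replicates per those methods. Reads were counted at the 3′ ends of transcripts, so that a count does not grow with transcript length, and levels are given per 1000000 counts (CPM) after TMM scaling over all libraries.

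Sphingolipids are built from serine and a fatty acyl-CoA. Serine palmitoyltransferase catalyses the first and rate-limiting step, KDSR reduces its product, a ceramide synthase adds an acyl chain whose length depends on the synthase, and DEGS1 inserts the double bond that makes ceramide. Ceramide then receives a head group, phosphocholine from SGMS1 in the Golgi or glucose from UGCG, or it is broken down to sphingosine. Ceramide is known as a lipid that can promote cell death, and the liver and the intestinal epithelium are both active sites of its synthesis.

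The libraries held between 1790841 and 3656662 counts, and 3 counts, taken as the floor of detection, correspond to at most 1.85 CPM. The lines were told apart by their markers. The 8 liver markers summed to 18100 to 21300 CPM in HepG2 controls, 12800 to 14000 CPM in HepG2 HME and at most 126 CPM in Ls174 libraries. The 8 intestinal markers summed to 321 to 338 CPM in Ls174 controls, 217 to 273 CPM in Ls174 HME and at most 22.5 CPM in HepG2 libraries. The summed markers of each line were thus lower after HME, with no overlap of the libraries, but single markers differed. TFF3 was higher in Ls174 HME (85.2 to 102 CPM) than in Ls174 controls (70.2 to 79.2 CPM). ALB, TTR, SERPINA1, FGB and TF overlapped between the HepG2 groups. KRT20 and MUC2 were at or near 0 in Ls174 libraries, and PTPRC and CD3E were at 0 in every library. 5 libraries stood apart. HepG2 control 2 had the highest SPTLC2 and the lowest ORMDL3, DEGS1 and UGCG of its group, HepG2 HME 2 held 546 CPM of COL1A1 and 404 CPM of COL1A2 against at most 6.03 CPM elsewhere, Ls174 control 1 had the fewest genes with a count (13885), and Ls174 control 3 held 126 CPM of liver markers. Ls174 HME 1 also held 57.6 CPM of them. The part of these differences in the results was not tested, and values without single libraries are given where they changed a result.

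The reads come from the ends of the transcripts, and the end sequences of the genes whose values carry the comparisons are shown to place the counted regions. Each line gives 30 bases around the polyadenylation signal of the leading region, the counted region that holds most of the gene's reads, 5′ to 3′ on the coding strand of GRCh37, with the hexamer in capitals. SPTLC2 (minus strand, leading region chr14:77972143-77978746), CERS6 (plus strand, chr2:169626173-169631841), ORMDL3 (minus, chr17:38077097-38078877), UGCG (plus, chr9:114695278-114697846) and SGMS1 (minus, chr10:52065163-52066901) carry the canonical hexamer, and the leading region holds the end of their last exon in the annotation. CERS5 (minus, chr12:50523378-50524477) carries ATTAAA. In SPTLC1 (minus, chr9:94841146-94841843), the hexamer lies at an end inside the gene.

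SPTLC2 (chr14:77972343-77972372): ttgttttgccctAATAAAatattcagaaag
CERS6 (chr2:169631608-169631637): aaacactttcatAATAAAgataagtattaa
SGMS1 (chr10:52065348-52065377): actgatacttaaAATAAAtggctgttattt
ORMDL3 (chr17:38077303-38077332): ctgagaaacgcaAATAAAagggcaacatgt
UGCG (chr9:114697613-114697642): ttttgttcaaaaAATAAAaatttgaataca
CERS5 (chr12:50523583-50523612): tgtttgtttgtgATTAAAagtgcttcaacc
SPTLC1 (chr9:94841345-94841374): aataaataaataAATAAAattgtttaaatg

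AATAAA was found within 40 bases before the end in 9 of the 10 genes and in 62.5% of 11089 counted genes with an annotated coding transcript end. With the variant hexamer of CERS5 allowed as well, 77.1% of those genes held a signal. The leading region held 99.9% of the SPTLC2 counts, all counts of CERS6, ORMDL3 and UGCG, 86.4% of those of SGMS1 and 92.6% of those of CERS5. SPTLC1 was counted poorly. It had 128 counts over the 12 libraries, 51.6% of them in the leading region, and the end of its longest annotated coding transcript, at position 94793429 of chromosome 9, lies in none of the regions counted for it. The distal end of CERS5, at 50523072 of chromosome 12, likewise lies in no counted region, whereas the distal end was covered in 85.7% of the 11089 genes. For SPTLC1 the counts therefore cover only some of its transcripts.

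SPTLC2 was 3.65-fold lower, CERS6 3.19-fold lower and SGMS1 2.55-fold lower in HME-treated Ls174 cells than in their controls. In HepG2 cells UGCG was 3.41-fold and SGMS1 3.04-fold higher with HME. In each line most of the tested genes passed none of the limits used below, and their values are given as measured. These contrasts were among those used to choose the genes, so the values below are descriptions, with no test of the genes as a set. In bulk RNA, less transcript per cell and fewer cells that carry it cannot be told apart. 9 of the 10 genes passed the filter on low counts in each line, SPTLC1 not in HepG2 and DEGS1 not in Ls174.

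**Figure D1:**
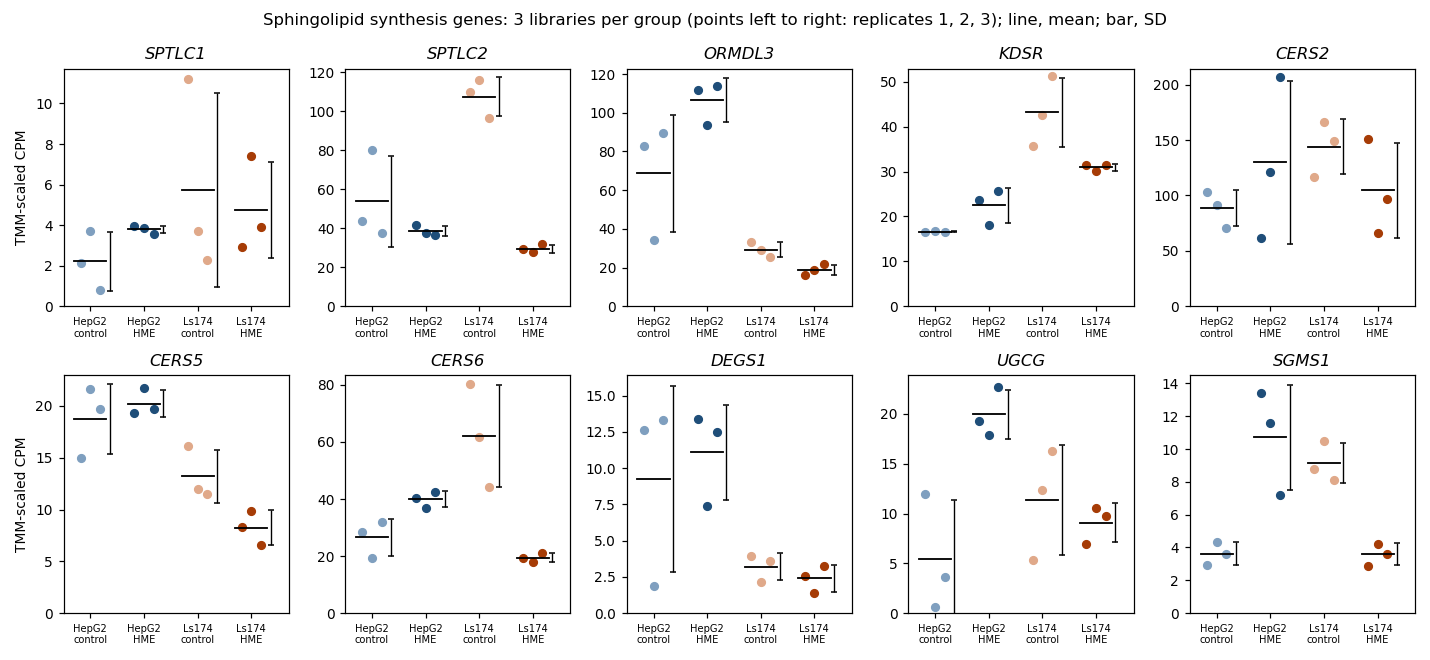
TMM-scaled CPM (vertical axis, linear from 0) of the 10 genes in each library, with 3 libraries per group as points, the mean as a line and the SD as a bar (cut at 0 where it would go below). The 3 treated Ls174 libraries lie between 27.6 and 31.7 CPM for SPTLC2, below the 3 controls at 96.5 to 116 CPM.

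The first enzyme of the pathway is a complex of SPTLC1 with SPTLC2 or SPTLC3. SPTLC2, the catalytic subunit present in most tissues, measured 110 CPM, 116 CPM and 96.5 CPM in the Ls174 controls and 29.4 CPM, 27.6 CPM and 31.7 CPM after HME. Every treated library lay below every control, and both groups were narrow, with SDs of 9.92 and 2.06 CPM. The log2 fold change was -1.87 (SE 0.19) and ranged from -1.94 to -1.81 when each library was left out in turn, the 2 libraries with liver markers included. In HepG2, SPTLC2 measured 43.5 CPM, 80.4 CPM and 37.4 CPM in the controls and 41.7 CPM, 37.8 CPM and 36.4 CPM after HME. These groups overlapped, the log2 fold change was -0.48 (SE 0.37), and without HepG2 control 2 it was 0.00. By group means SPTLC2 was highest in Ls174 control (107 ± 9.92 CPM, SD, n = 3), followed by HepG2 control (53.8 ± 23.3 CPM), HepG2 HME (38.7 ± 2.74 CPM) and Ls174 HME (29.5 ± 2.06 CPM). Of neighbours in this order only the HepG2 groups overlapped in their libraries.

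SPTLC1, the partner subunit that SPTLC2 needs, was detected with 2 to 23 counts per library. It measured 2.22 ± 1.45 CPM in HepG2 control, 3.79 ± 0.184 CPM in HepG2 HME, 5.75 ± 4.82 CPM in Ls174 control and 4.75 ± 2.38 CPM in Ls174 HME cells (SD, n = 3). The log2 fold change in Ls174 was -0.22 (SE 0.69) and 0.68 without Ls174 control 1, so that no difference was detectable with so few counts. ORMDL3, a membrane protein that restrains serine palmitoyltransferase when sphingolipids are plentiful, measured 82.8 CPM, 34.0 CPM and 89.6 CPM in HepG2 controls and 112 CPM, 93.5 CPM and 114 CPM after HME. The treated HepG2 libraries all lay above the controls, with a log2 fold change of 0.65 (SE 0.37) that was 0.37 without HepG2 control 2. In Ls174, ORMDL3 measured 33.3 CPM, 29 CPM and 25.5 CPM in controls and 16.3 CPM, 18.7 CPM and 21.6 CPM after HME. All treated libraries lay below the controls, and the log2 fold change was -0.63 (SE 0.25). It missed the thresholds used below without control 1 (-0.52), control 2 (-0.64), HME 1 (-0.53) or HME 2 (-0.62), with the replicate number as a block (-0.63), in 1 fit of all 12 libraries (-0.63) and with no filter beyond 1 count (-0.61).

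KDSR, which reduces 3-ketodihydrosphingosine, measured 16.6 CPM, 16.7 CPM and 16.5 CPM in HepG2 controls and 23.6 CPM, 18.2 CPM and 25.7 CPM after HME. In Ls174 it measured 35.7 CPM, 42.6 CPM and 51.2 CPM in controls and 31.5 CPM, 30.1 CPM and 31.4 CPM after HME. The groups did not overlap in either line, yet the log2 fold changes were small, at 0.45 (SE 0.32) in HepG2 and -0.49 (SE 0.21) in Ls174. DEGS1, which turns dihydroceramide into ceramide, was sparse. It measured between 1.85 and 13.4 CPM in HepG2 libraries and between 1.41 and 3.91 CPM in Ls174 libraries, with a log2 fold change of 0.24 (SE 0.57) in HepG2 that was -0.16 without HepG2 control 2.

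Of the 3 ceramide synthases, CERS6 was called lower in Ls174 at the limits used below and CERS2 and CERS5 were not, and no test compared the synthases with each other. CERS6, which prefers palmitoyl-CoA, measured 80.2 CPM, 61.8 CPM and 44.3 CPM in Ls174 controls and 19.2 CPM, 18 CPM and 21.2 CPM after HME. The treated libraries were close together and all lay below the lowest control, with a log2 fold change of -1.67 (SE 0.27; between -1.87 and -1.43 without single libraries). In HepG2, CERS6 measured 28.3 CPM, 19.2 CPM and 32.1 CPM in controls and 40.5 CPM, 36.8 CPM and 42.4 CPM after HME, a log2 fold change of 0.60 (SE 0.30) in the other direction with no overlap of the groups. CERS5, which also uses palmitoyl-CoA, measured 16.1 CPM, 12 CPM and 11.5 CPM in Ls174 controls and 8.34 CPM, 9.90 CPM and 6.54 CPM after HME. Its log2 fold change was -0.68 (SE 0.34) in Ls174 and 0.13 (SE 0.33) in HepG2, where the groups overlapped. CERS2, the synthase for very long acyl chains, varied widely between treated libraries. It measured 61.4 CPM, 121 CPM and 207 CPM in HepG2 HME and 151 CPM, 66.1 CPM and 96.7 CPM in Ls174 HME cells, and both treated groups overlapped their controls. The log2 fold change of CERS2 in HepG2 was 0.56 (SE 0.44) and 0.07 without HepG2 HME 3, and in Ls174 it was -0.47 (SE 0.30) and -0.82 without Ls174 HME 1.

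Head-group transfer was represented by SGMS1 and UGCG. SGMS1, which makes sphingomyelin in the Golgi, measured 2.94 CPM, 4.33 CPM and 3.62 CPM in HepG2 controls and 13.4 CPM, 11.6 CPM and 7.17 CPM after HME. In Ls174 it measured 8.80 CPM, 10.5 CPM and 8.14 CPM in controls and 2.90 CPM, 4.24 CPM and 3.59 CPM after HME. The groups were separate in both lines and in opposite directions, with log2 fold changes of 1.61 (SE 0.46) in HepG2 and -1.35 (SE 0.41) in Ls174. These values rest on 7 to 34 counts per library. UGCG, which makes glucosylceramide, measured 12 CPM, 0.618 CPM and 3.62 CPM in HepG2 controls and 19.3 CPM, 17.9 CPM and 22.7 CPM after HME. The treated libraries all lay above the controls, but the controls were spread, and HepG2 control 2 held 1 count of UGCG. The log2 fold change of 1.77 (SE 0.64) was 1.35 without HepG2 control 2 and 3.09 without HepG2 control 1, and it missed the thresholds used below without HepG2 control 3 (1.53) or HepG2 HME 3 (1.70). In Ls174, UGCG measured 5.38 CPM, 12.4 CPM and 16.3 CPM in controls and 6.89 CPM, 10.6 CPM and 9.80 CPM after HME, so that the groups overlapped.

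**Figure D2:**
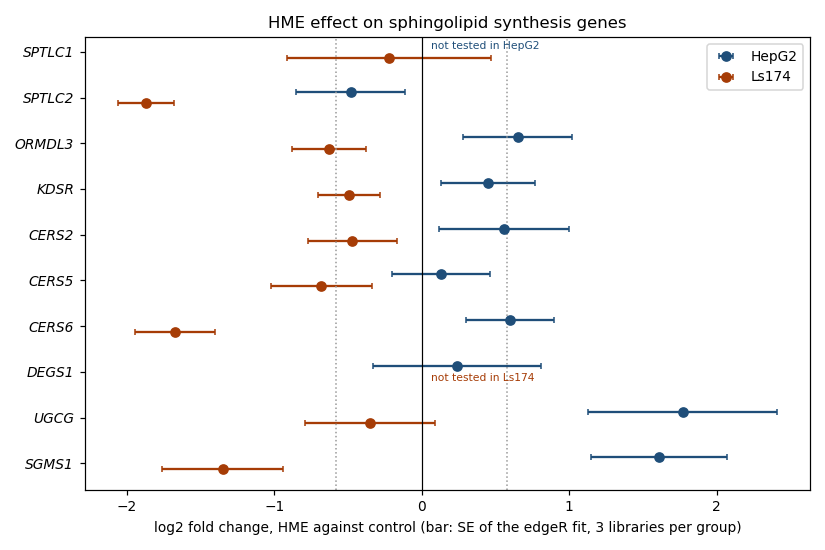
Log2 fold change of HME against control (horizontal axis) with its SE from the edgeR fit in HepG2 and Ls174 cells, 3 libraries per group, with dotted lines at 0.58 on either side of 0. All 9 genes tested in Ls174 lie below 0, and 8 of the 9 tested in HepG2 lie above 0, the exception being SPTLC2 at -0.48.

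The limits in the methods of the study were a log2 fold change beyond 0.58 and an unadjusted p under 0.05, there from a binomial test. Applied here to the p of edgeR, they called 2 of the 9 tested genes higher in HepG2, SGMS1 and UGCG, where 11.3% of all tested genes were called higher. None was called lower, where 10.9% of all tested genes were. No gene of the 10 reached an adjusted p under 0.05 in HepG2 with edgeR, against 3.31% of all genes. UGCG did with no filter beyond 1 count and without HepG2 control 1, and SGMS1 did in 1 fit of all 12 libraries and without HepG2 control 2. SGMS1 also did with DESeq2, where 9.11% of all genes did. In Ls174, 4 of the 9 were called lower, SPTLC2, CERS6, SGMS1 and ORMDL3, where 7.85% of all tested genes were, and none was called higher, where 4.11% were. 2 of these, SPTLC2 and CERS6, had an adjusted p under 0.05, as did 1.18% of all genes. Both missed it with the replicate block, without Ls174 control 2 and without each of the HME libraries. CERS6 also missed it without Ls174 control 3. No gene of the series passed with the block or without any 1 HME library, and 1 higher and 1 lower gene did without control 2. Without Ls174 control 1, 357 genes passed as higher and 622 as lower, SPTLC2, CERS6 and SGMS1 among the latter. The groups did not overlap, with HME higher, for 5 of the 9 genes in HepG2 (15.5% of all genes, and 15.3% with HME lower) and, with HME lower, for 6 of the 9 in Ls174 (12.2% of all genes, and 11.6% with HME higher). The median log2 fold change of the tested genes was 0.56 in HepG2 and -0.63 in Ls174, where the median over all tested genes was -0.04 and 0.00. Since the same contrasts served to choose the genes, nothing is read from these counts. Scaling by library size alone moved the median of all genes in HepG2 to -0.20 and the share of called genes that were higher from 50.9% to 33.2%, and it gave 2 called genes among the 10 as before. In Ls174 it moved that share from 34.4% to 24.9%, and for the interaction from 43.7% to 53.7%.

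The difference between the 2 effects, that of Ls174 minus that of HepG2, was below 0 for all 10 genes in a fit of the 12 libraries. Its median over all tested genes was 0.04. The HME effects in the 2 lines served to choose the genes, so nothing is read from this count. The difference was -2.94 (SE 0.60) for SGMS1, -2.24 (SE 0.41) for CERS6, -2.08 (SE 0.84) for UGCG, -1.40 (SE 0.41) for SPTLC2 and -1.25 (SE 0.46) for ORMDL3 on the log2 scale. KDSR differed by -0.92 (SE 0.37), CERS2 by -1.01 (SE 0.56), SPTLC1 by -1.05 (SE 0.96), CERS5 by -0.79 (SE 0.44) and DEGS1 by -0.60 (SE 0.86). 6 of the 10 were called with a negative difference, where 7.42% of all genes were, and none with a positive one, where 5.75% were. CERS6 and SGMS1 had an adjusted p under 0.05, as did 0.644% of all genes. Neither did with scaling by library size alone, with the replicate block, without Ls174 control 2 or without any 1 of the 6 HME libraries, and SGMS1 also did not without HepG2 control 1, HepG2 control 3 or Ls174 control 3. The direction of each difference was the same when any single library was left out.

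Between the control lines 2 of the 9 tested genes were called. The genes were chosen with earlier results of these data known, so the values between the lines are descriptions. KDSR was 2.54-fold higher in Ls174 control than in HepG2 control cells (43.2 ± 7.74 CPM against 16.6 ± 0.112 CPM), and CERS6 was 2.27-fold higher (62.1 ± 18 CPM against 26.5 ± 6.67 CPM). Both passed an adjusted p under 0.05 with a log2 fold change beyond 0.58, as did 23.5% of all tested genes, and neither call held when HepG2 control 1, HepG2 control 3, Ls174 control 2 or Ls174 control 3 was left out. The others did not pass. By the fit SPTLC2 was 1.94-fold higher in Ls174 controls (adjusted p = 0.112), SGMS1 2.48-fold (adjusted p = 0.0914) and CERS2 1.59-fold (adjusted p = 0.178). ORMDL3 was 2.40-fold lower (29.2 ± 3.91 CPM against 68.8 ± 30.3 CPM, adjusted p = 0.0501). The libraries did not overlap, with Ls174 higher, for 5 of the 9 genes, as for 20.4% of all genes, and with HepG2 higher for 1, as for 22.3%. DEGS1 was 2.97-fold lower in Ls174 (adjusted p = 0.149), though HepG2 control 2, at 1.85 CPM, lay below all Ls174 controls. UGCG and CERS5 overlapped between the lines.

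The 58 other genes of sphingolipid synthesis, transfer and breakdown that were listed gave 37 genes with enough counts in HepG2 and 36 in Ls174. 3 rose and 4 fell in HepG2 at the same thresholds, no larger shares than the 11.3% and 10.9% of all genes. In Ls174 3 rose and 7 fell, where 4.11% and 7.85% of all genes did. The median log2 fold change of the list was -0.06 in HepG2 and -0.29 in Ls174, and that of all tested genes was -0.04 and 0.00. SMPD1, SMPD2 and ARSA of this list, and SPTLC2, CERS6 and SGMS1 among the 10, also stand in a list that the study drew from these libraries, which is not independent evidence of a direction. Most of the calls below have an adjusted p above 0.05. SPTLC3, SGMS2, SAMD8, CERK and GLA in HepG2, and FA2H, SGMS2, UGT8, B4GALT5, ALDH3A2 and SPNS2 in Ls174, stayed past the unadjusted limits under every alternative that tested them.

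SPTLC3, an alternative catalytic subunit of serine palmitoyltransferase that makes shorter chains, fell in HepG2. It measured 35.0 CPM, 37.7 CPM and 39.8 CPM in controls and 9.05 CPM, 7.35 CPM and 4.78 CPM after HME, a 5.16-fold decrease with a log2 value of -2.37 (SE 0.36) and an adjusted p of 0.00819. All treated libraries lay far below the controls, and the fold change ranged from -2.55 to -2.17 without single libraries, with the adjusted p between 0.00327 and 0.0629. Leaving out HepG2 HME 2 or HepG2 HME 3 took it above 0.05. In Ls174, SPTLC3 had at most 3 counts in any control library. At the same step, ORMDL1 measured 50.5 ± 29.3 CPM and 47.5 ± 9.82 CPM in HepG2 control and HME cells, and ORMDL2 measured 55.6 ± 24.1 CPM and 42.8 ± 6.25 CPM (SD, n = 3). In Ls174, ORMDL1 measured 39.0 ± 24.5 CPM and 69.9 ± 11.4 CPM, and ORMDL2 55.9 ± 7.25 CPM and 54.7 ± 7.45 CPM. SPTSSA, a small activating subunit, measured 418 CPM in HepG2 HME 2, the library with collagen transcripts, and between 105 and 127 CPM in the other 2 treated HepG2 libraries. The HepG2 controls measured 55.0 to 141 CPM of SPTSSA. In Ls174 it measured 63.2 ± 15.8 CPM in control and 74.5 ± 7.82 CPM in HME cells.

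Among the other ceramide synthases, CERS4 fell in HepG2 from 10.7 CPM, 29.1 CPM and 5.22 CPM to 3.94 CPM, 4.20 CPM and 4.78 CPM (log2 fold change -1.78, adjusted p = 0.155), a call that was lost without HepG2 control 2 (-0.85), without HepG2 HME 1 (-1.69) and without HepG2 HME 2 (-1.75). CERS1, which has 55 of its counts in a region shared with GDF1, measured 10.1 ± 1.86 CPM in HepG2 controls and 9.10 ± 3.26 CPM after HME and had 0 counts in every Ls174 library, and CERS3 had at most 1 count in any library. FA2H, which hydroxylates fatty acids that become acyl chains of ceramide, fell in Ls174 from 21.5 CPM, 12 CPM and 10.2 CPM to 5.07 CPM, 4.95 CPM and 7.19 CPM (log2 fold change -1.33, SE 0.42, adjusted p = 0.222). DEGS2, the desaturase that also makes phytoceramide, measured 43.3 ± 5.27 CPM in Ls174 controls and 39.9 ± 8.88 CPM after HME and had 0 counts in HepG2 libraries.

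SGMS2, the sphingomyelin synthase of the plasma membrane, rose in HepG2 from 3.74 CPM, 0 and 3.62 CPM to 15.0 CPM, 11.2 CPM and 11.3 CPM (log2 fold change 2.23, SE 0.65, adjusted p = 0.0908). In Ls174 it fell from 8.31 CPM, 8.65 CPM and 7.89 CPM to 2.90 CPM, 2.83 CPM and 3.92 CPM (log2 fold change -1.36, SE 0.42, adjusted p = 0.211). The difference of the 2 effects was -3.55 (SE 0.82, adjusted p = 0.0698). SAMD8, a relative that makes ceramide phosphoethanolamine, rose in HepG2 from 8.01 CPM, 2.47 CPM and 3.21 CPM to 18.5 CPM, 10.5 CPM and 25.1 CPM (log2 fold change 1.90, SE 0.52, adjusted p = 0.0796). In Ls174 its control libraries measured 0, 13.6 CPM and 8.65 CPM and overlapped the treated ones at 4.25 to 4.60 CPM.

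**Figure D3:**
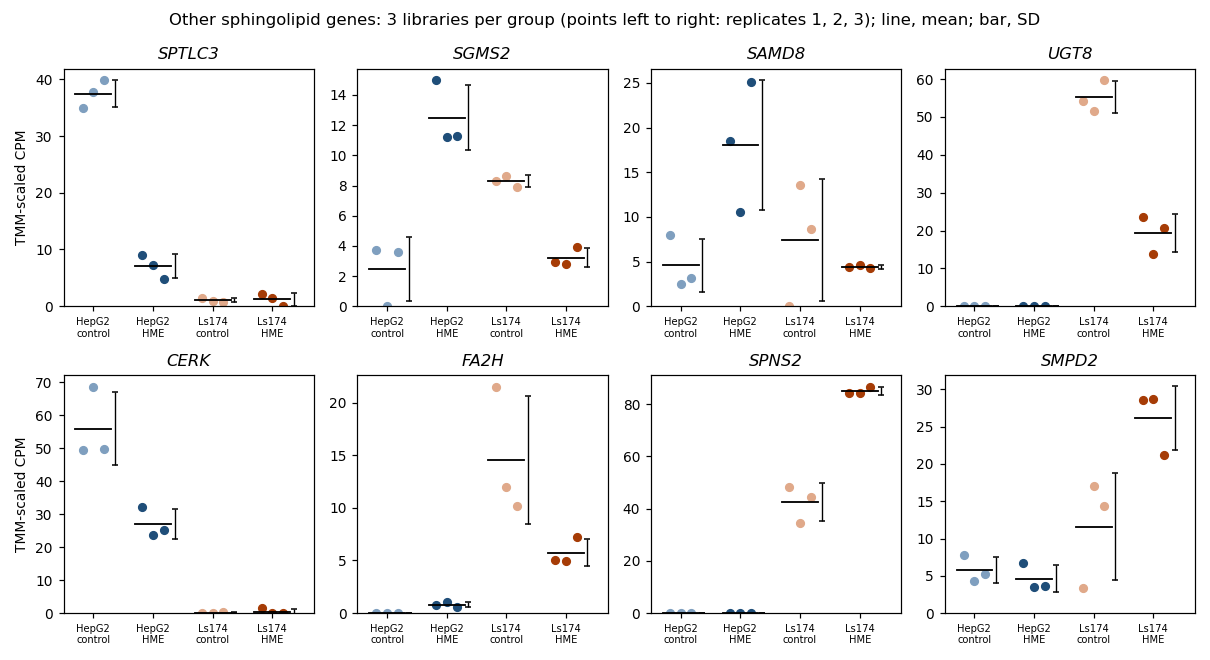
TMM-scaled CPM (vertical axis, linear from 0) of 8 other sphingolipid genes in each library, with 3 libraries per group as points, the mean as a line and the SD as a bar. SPTLC3 and CERK are near 0 in Ls174 libraries, and UGT8 and SPNS2 have no counts in HepG2 libraries.

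UGT8, which adds galactose to ceramide, fell in Ls174 from 54.3 CPM, 51.6 CPM and 59.8 CPM to 23.6 CPM, 13.8 CPM and 20.6 CPM. The log2 fold change was -1.52 (SE 0.25, adjusted p = 0.0348), and the adjusted p lay above 0.05, at up to 0.274, without Ls174 control 2, without Ls174 control 3 and without each HME library. It was 0.147 with the replicate block and also missed the limit in 1 fit of all 12 libraries. No gene of the series passed in Ls174 with the block or without any 1 HME library. B4GALT5, a lactosylceramide synthase, fell in Ls174 from 58.4 ± 18.5 CPM to 29.7 ± 4.71 CPM (log2 fold change -0.98, SE 0.28, adjusted p = 0.163). CERK, the ceramide kinase, fell in HepG2 from 49.4 CPM, 68.6 CPM and 49.8 CPM to 32.3 CPM, 23.8 CPM and 25.1 CPM (log2 fold change -1.04, SE 0.32, adjusted p = 0.104).

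**Figure D4:**
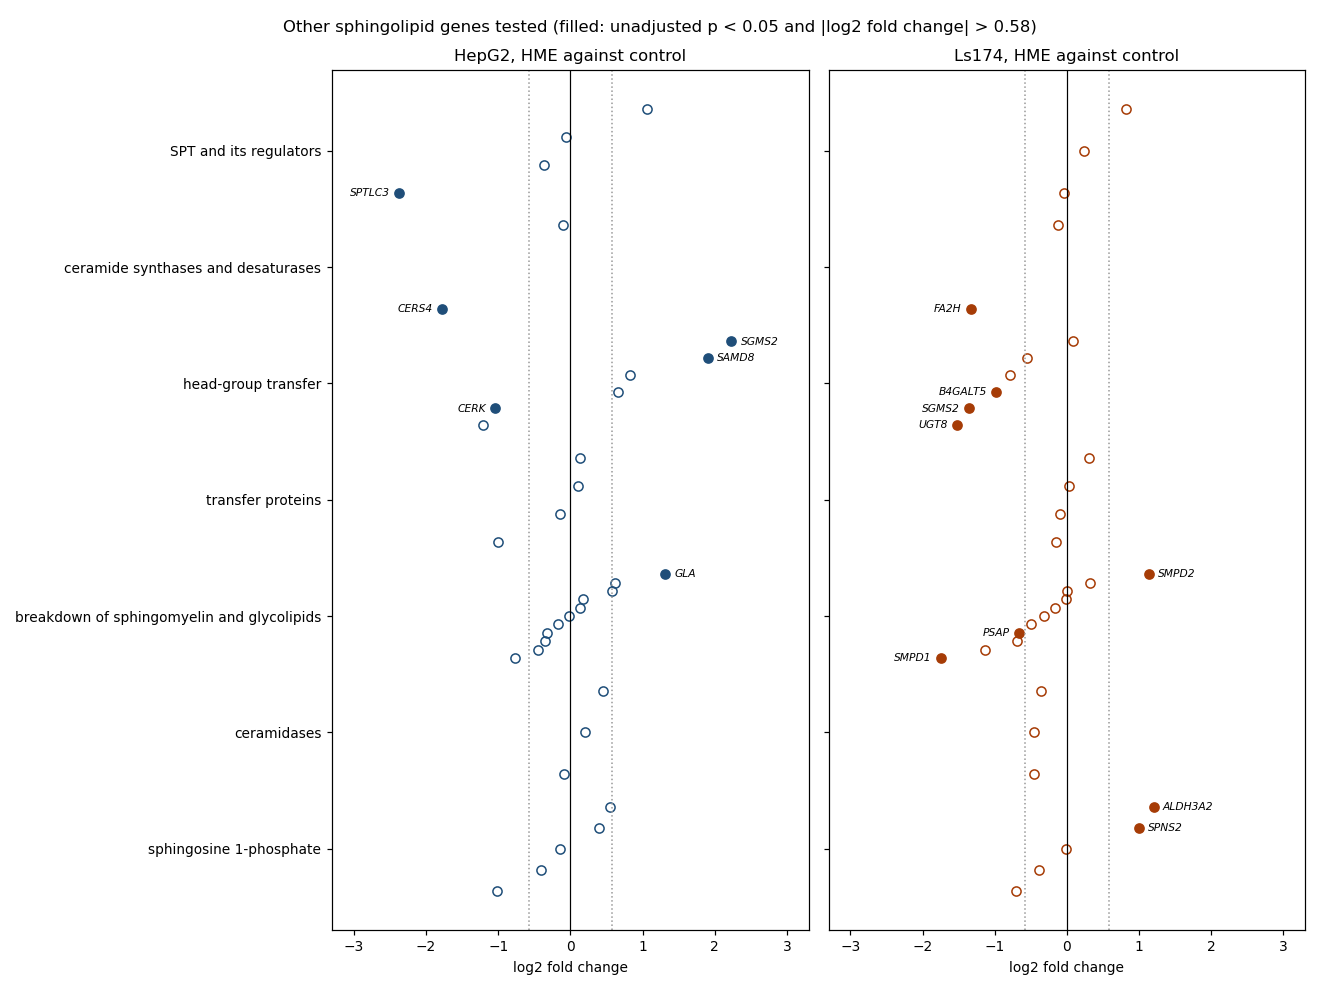
Log2 fold change of HME against control (horizontal axis) for other sphingolipid genes tested, grouped by role, in HepG2 (left) and Ls174 (right). Filled points passed an unadjusted p of 0.05 and a log2 fold change of 0.58, with SPTLC3 lowest in HepG2 and SGMS2 highest.

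On the side of breakdown, GLA, the lysosomal alpha-galactosidase, rose in HepG2 from 40.3 CPM, 12.4 CPM and 35.8 CPM to 75.9 CPM, 63.7 CPM and 77.6 CPM (log2 fold change 1.31, SE 0.40, adjusted p = 0.104). In Ls174, SMPD1, the acid sphingomyelinase, was called lower at -1.75, and without Ls174 control 1, which held 40.1 CPM against 8.03 CPM and 7.38 CPM in the other controls, the value was -0.50. SMPD2, a neutral sphingomyelinase, was called higher there at 1.13 (SE 0.46, adjusted p = 0.342), a call lost without each of the HME libraries. Its leading region, with 214 of 425 counts, overlaps a counted region of MICAL1 on the opposite strand, with 131 counts. PSAP, the precursor of the saposins, was called lower at -0.66, a call lost without Ls174 control 2, control 3, HME 2 or HME 3. None of the 3 ceramidase genes tested passed the thresholds in either line.

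Of the 5 tested genes of the sphingosine 1-phosphate branch, 2 were called higher in Ls174, where 4.11% of all tested genes were. The other 3 lay below 0, and no gene of the branch reached an adjusted p under 0.05 there. SPNS2, the exporter of sphingosine 1-phosphate, measured 48.4 CPM, 34.3 CPM and 44.5 CPM in controls and 84.1 CPM, 84.2 CPM and 86.6 CPM after HME. The treated libraries were close together, with a log2 difference of 1.00 (SE 0.21) and an adjusted p of 0.0706. All 1120 counts of SPNS2 lie in a region that overlaps a counted region of MYBBP1A on the opposite strand, with 1102 counts. The part of opposite-strand reads in this value was not tested. ALDH3A2, which oxidizes the fatty aldehyde released when sphingosine 1-phosphate is cleaved, rose from 54.6 ± 21.3 CPM to 127 ± 31.8 CPM (log2 fold change 1.2, SE 0.32, adjusted p = 0.149). SPHK1, a kinase that makes sphingosine 1-phosphate, measured 85.4 ± 27.5 CPM in HepG2 controls and had at most 1 count in any Ls174 library.

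Between the control lines, 15 of the 42 tested genes of the list passed an adjusted p under 0.05 with a log2 fold change beyond 0.58, where 23.5% of all tested genes did. 5 were higher in Ls174 (9.33% of all genes) and 10 higher in HepG2 (14.2%). Against the floor of 3 counts in the library where it is highest, SPHK1 was at least 58.1-fold, CERK at least 38.0-fold, SPTLC3 at least 25.5-fold, B4GALNT1 at least 12-fold, CERS4 at least 10.2-fold and CERS1 at least 6.87-fold higher in HepG2 controls. The bound for CERS4 rests on HepG2 control 2, without which it is 5.41-fold. UGT8 was at least 29.8-fold, DEGS2 at least 23.4-fold, SPNS2 at least 22.9-fold and FA2H at least 7.89-fold higher in Ls174 controls. NEU1, a lysosomal sialidase, was 7.35-fold higher in HepG2 (196 ± 50.3 CPM against 27.1 ± 4.61 CPM, SD, n = 3).

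The use of alternative 3′ regions within a gene did not enter the choice of the 10 genes and was tested on its own. With edgeR, 3 of 4133 genes (0.0726%) changed their region use with HME in HepG2 and 0 of 3636 (0.0%) in Ls174 at an adjusted p under 0.05, where 420 and 198 genes had an unadjusted p under 0.05. None of the 5 genes of the 10 that had several counted regions in HepG2 was among them, nor was SPTLC1, the only one in Ls174. Between the control lines 129 of 4103 genes (3.14%) differed. CERS5 had 1 to 8 counts in each HepG2 library in a region at chr12:50547612-50547649, upstream of its leading region, and 0 counts there in every Ls174 library (adjusted p = 0.0562). The leading region held between 82.9% and 91.1% of CERS5 counts in HepG2 controls and all of them in Ls174 controls. CERS2 had the same adjusted p, 0.0562, with 97.7% to 98.6% of its counts in the leading region in HepG2 controls and all of them in Ls174 controls. ASAH1, the acid ceramidase, was the only gene of the wider list that passed (adjusted p = 0.0102). Its leading region held 71.8%, 43.8% and 77.6% of the counts in HepG2 controls and 29.4%, 35.8% and 39.3% in Ls174 controls. The adjusted p was 0.0646 without HepG2 control 2 and 0.0790 without Ls174 control 2.

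Across the 12 libraries the 5 genes whose log2 CPM followed SPTLC2 most closely, among genes with a mean of at least 10 CPM, were CELSR2, CD46, TMEM248, TM9SF2 and NDC1. Pearson's r with SPTLC2 was 0.912, 0.904, 0.903, 0.902 and 0.899 in this order. Within the 6 Ls174 libraries r was 0.94, 0.983, 0.948, 0.925 and 0.974, and within the 6 HepG2 libraries 0.835, 0.758, 0.784, 0.849 and 0.858. These values describe the pattern and carry no test, because the libraries share their group and depth. Among the HepG2 libraries all 5 genes were highest in control 2, as SPTLC2 was. TM9SF2 measured 381 CPM there and 96.4 to 190 CPM in the other HepG2 libraries, and r without control 2 was not computed. CELSR2 was near the floor in HepG2 HME libraries, at 0.597 to 2.75 CPM. CD46 measured 129 CPM, 159 CPM and 132 CPM in Ls174 controls and 49.7 CPM, 58.7 CPM and 63.1 CPM after HME, a pattern like that of SPTLC2. Of the 6 other genes of the 10 with such a mean, CERS6 was most like SPTLC2 (r = 0.669), followed by KDSR (0.419).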

How the data were processed

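RNA of 12 cultures was measured with QuantSeq 3′ libraries on an Ion Proton instrument. Per the methods the reads were aligned with Hisat2 to hg19 and counted by metaseqR2 in 3′ regions. The deposited counts are whole numbers without normalization, made by the authors; their versions, and how reads with several alignments or on the opposite strand were treated, are not given in the sources used here. Regions were summed per gene. Counts were fitted in edgeR 4.0.16 (R 4.3.3; TMM scaling, filterByExpr, quasi-likelihood test, Benjamini-Hochberg adjustment), with the 6 libraries of a line in each HME comparison, the 6 control libraries between lines and 12 in the interaction. A call used the limits of the study, a log2 fold change beyond 0.58 with an unadjusted p under 0.05, or an adjusted p under 0.05, and between lines both an adjusted p under 0.05 and the fold limit. The study took its p from a binomial test, so its calls are not directly comparable with these. Use of 3′ regions (at least 10 counts) was tested per gene with edgeR's diffSpliceDGE. DESeq2 1.42.0 was an alternative. Scripts were tested on simulated data.

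The genes, the wider list and the tests were chosen with earlier results of these data known. The genes named are the 10 genes, those of the wider list past the thresholds in either line in order of p, the serine palmitoyltransferase, ceramide synthase, sphingomyelin synthase and ORMDL families, and the 5 genes most like SPTLC2 by Pearson's r of log2 CPM (prior count 2). Library depth was 1790841 to 3656662 counts. Replicates of a group differed beyond sampling noise (chi-square per degree of freedom 4.44 to 54.1), so each counts once. Same-numbered control and HME libraries did not deviate together (correlations -0.17 to 0.09), so they were not paired. The marker PECAM1 was not analysed here, and some genes counted in the wider list are not reported here or plotted. The p-values set the difference between groups against the spread between these cultures as estimated by the fit.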

Additional observations from a re-analysis of the deposited data

Results flagged for a closer look

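2 results stood out because the HME effect differed between the lines in the interaction term of the 12-library fit at an adjusted p under 0.05. For CERS6 the effect in Ls174 minus that in HepG2 was -2.24 on the log2 scale, with treated libraries below all controls in Ls174 and above all controls in HepG2. For SGMS1 it was -2.94, with the same arrangement of libraries on 7 to 34 counts each. Both genes were chosen with these contrasts in view, so the values are descriptions. Without single libraries the difference ranged from -2.43 to -2.01 for CERS6 and from -3.14 to -2.70 for SGMS1, and neither passed the adjusted threshold when any 1 of the 6 HME libraries or Ls174 control 2 was left out, with scaling by library size alone or with the replicate block. SGMS1 also missed it without HepG2 control 1, HepG2 control 3 or Ls174 control 3, and it was not tested with at least 10 counts in every library. The sign of both was the same under each scaling tried.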

How the results depend on the processing

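The values of SPTLC2, CERS6 and SGMS1 in Ls174 and of SGMS1 in HepG2 kept their direction and stayed past the unadjusted thresholds under each alternative that gave a value; their side of an adjusted p of 0.05 changed as given above. Among the 10 genes, the number called in HepG2 was 2, and 0 at an adjusted p under 0.05. It was also 0 with at least 10 counts in every library, where 6 genes were tested, SGMS1 and UGCG not among them. In Ls174 the number called was 4, and 2 at an adjusted p. Between the control lines it was 2, and 1 with at least 10 counts in every library and 5 by the unadjusted p; for the interaction it was 6, and 2 at an adjusted p. Leaving out 1 library gave 1 to 2 called in HepG2, 3 to 6 in Ls174, 0 to 4 between the lines and 4 to 6 for the interaction. Over all genes these numbers moved too. They were 978 to 1675 called higher and 736 to 1421 lower in HepG2, of 11543 to 11987 tested. In Ls174 they were 286 to 747 and 552 to 1077, of 11609 to 11731. Between the lines they were 748 to 1392 and 1386 to 1975, of 12345 to 12833. For the interaction they were 550 to 971 and 781 to 1190, of 13411 to 13570. Nothing is therefore read from such ranges about the listed genes. Of the wider list, 7 of 37 tested genes were called in HepG2, and 1 at an adjusted p. With no filter beyond 1 count 14 of 52 were called there, and with at least 10 counts in every library 4 of 27. In 1 fit of all 12 libraries it was 13 of 43. Of all 11343 genes tested in HepG2, 1282 were called higher and 1235 lower. With no filter it was 1905 and 1933 of 24458, and with 10 counts 926 and 913 of 8394. In 1 fit it was 1451 and 1619 of 13040. In Ls174 10 genes of the wider list were called, and 1 at an adjusted p. Between lines it was 15 of 42, and 3 of 24 with at least 10 counts in every library. With that filter 349 of all 7618 genes passed as higher and 563 as lower, against 1111 and 1687 of 11907. For the interaction 8 of the wider list were called, and 13, 4 and 0 under no filter, 10 counts in every library and an adjusted p. Over all genes it was 1175 higher and 1205 lower of 27326 with no filter, and 473 and 595 of 7080 with 10 counts. Leaving out 1 library gave 6 to 9 called genes of the wider list in HepG2, 6 to 13 in Ls174, 12 to 18 between the lines and 5 to 11 for the interaction. SPTLC2 in HepG2 was 0.02 without HepG2 control 2 and HepG2 HME 2 together (an alternative chosen after seeing the data) and ranged from -0.69 to 0.00 without 1 library; CERS5 was -0.01 by library size and from -0.04 to 0.31 without 1 library; DEGS1 was from -0.16 to 0.53. In Ls174, without 1 library, SPTLC1 was from -0.70 to 0.68 and UGCG from -0.65 to 0.01. KDSR (-0.59), CERS2 (-0.58) and UGCG (-0.65) were called lower in Ls174 without control 1, and CERS2 (-0.82) without HME 1. The cause was not tested. For 3′ region use between the lines 1 gene of all listed passed, and 0 by combined region tests, with the replicate block, or without control 2 of either line. With the replicate number as a block, 0 of the 10 genes were called between the lines in place of 2, 0 reached an adjusted p under 0.05 in Ls174 in place of 2 or for the interaction in place of 2, 3 were called in Ls174 in place of 4 and 2 in HepG2 as without it, and UGT8 lost its adjusted p; the libraries share only a number, since 1 of 3 pairs correlated best with its own number in HepG2 and 0 of 3 in Ls174. None of the 5 genes most like SPTLC2 was among the first 5 by Spearman's rho or within either line. Low counts limit SPTLC1, DEGS1 and SGMS1, and SPTLC1 also has an annotated transcript end outside the counted regions.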

Other observations

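The receptors for sphingosine 1-phosphate were at or near the floor in both lines. S1PR1 and S1PR2 had 0 counts in the 12 libraries, which allows up to 1.85 CPM in the library where 3 counts weigh most. S1PR3 had 8 counts, all of them in HepG2 HME libraries (1.09 ± 0.763 CPM, SD, n = 3), and S1PR4 and S1PR5 had 16 counts and 1 count in all. ACER1 and ACER2, ceramidases of other tissues, had 1 count and 3 counts in all, whereas ACER3 measured between 9.79 and 20.5 CPM over the 12 libraries.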
